A study of Mus musculus with 16 samples.

Results

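The genes described here drive and mark passage through the cell cycle. They are G1 cyclins and cyclin-dependent kinases (CDKs), S phase genes of DNA replication, and genes of G2 and mitosis, measured in mouse ventricular myocardium. The list named 36 genes, and a gene was measured through a probe set (a group of array probes summarised as 1 value) that the array annotation assigns to that gene alone. Where a gene had several such probe sets, the one with the highest mean over all 16 arrays was used. Of the 36 genes, 35 had such a probe set, out of 18193 genes measured in the same way. They comprised 9 G1 genes, 11 S phase genes and 15 genes of G2 and mitosis. Cyclin B1 (Ccnb1) was not analysed here.

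The study crossed the loss of a receptor with endotoxin in a 2 by 2 design, with 4 arrays in each of 4 groups. All mice were males on a CD1 background, 14 weeks old. Wild-type saline and wild-type LPS mice had an intact adenosine 2A receptor, and knockout saline and knockout LPS mice, their littermates, lacked it. LPS (lipopolysaccharide, the endotoxin of Gram-negative bacteria) was given intraperitoneally at 20 mg/kg, the other groups received saline, and ventricles were taken 24 h later. The labels name no tissue-specific promoter or Cre for the deletion, so the receptor's loss is not tied here to any 1 cell type. Genotype is taken from the labels alone, as the transcript of the deleted receptor is not analysed here. The labels number the replicates but do not say which animals shared a litter or whether any were pooled, so p-values measure the spread between these arrays.

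In G1, D-type cyclins with Cdk4 and Cdk6, then E-type cyclins with Cdk2, phosphorylate the retinoblastoma protein, which frees E2F factors to switch on genes of DNA replication. The minichromosome maintenance proteins Mcm2 to Mcm7 form the ring-shaped helicase that is loaded on replication origins and unwinds DNA in S phase, and Cdk1 with cyclins A and B then drives mitosis. Most cardiomyocytes of the adult heart have left the cell cycle, so that division there is rare and falls largely to endothelial cells, fibroblasts and leukocytes.

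All values are log2 levels, on which a difference of 1 is a 2-fold difference, and levels of different genes are not compared because probe sets differ in their response. As a guide to how dim a probe set was, the median over all 45101 probe sets of their mean levels was 4.66. Of the 9 G1 genes, 8 had a mean above this median, as did 8 of the 11 S phase genes but only 3 of the 15 genes of G2 and mitosis. Of the 15, 11 lay below it in every one of the 16 arrays. Among these was Top2a, the topoisomerase that untangles replicated DNA, at 3.50 to 4.27. Bub1, a kinase of the spindle checkpoint, lay at 3.00 to 3.48, and Aurkb, the kinase of the chromosomal passenger complex, at 2.92 to 3.33. The proliferation marker Mki67, at 3.93 to 4.81, reached above the median in some arrays. Most mitotic genes were thus read close to the dim end of the array, where a change in the RNA moves the value little. The exceptions above the median in every array were Cenpa, Plk1 and Cdc20.

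Heart muscle in the samples was checked with 10 cardiomyocyte markers, which had an array mean of 13.34 to 13.82 in all 16 arrays. This mean does not tell ventricle from atrium. Some arrays stood apart. Wild-type LPS array 4 had a mean correlation with the other arrays of its group of 0.976, against 0.985 to 0.988 for the other 3, and knockout LPS array 2 had one of 0.982, against 0.987 to 0.991. In wild-type saline arrays 1 and 4 the mean of 9 skeletal muscle markers was 7.78 and 9.44, against 5.71 to 6.02 in the other 14 arrays. Calls of the 35 genes that were lost or gained without these arrays are given beside the gene.

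The first question was whether endotoxin moved these genes in wild-type hearts. With limma's moderated test and Benjamini-Hochberg adjustment over all 18193 genes, 5 of the 35 genes passed an adjusted p of 0.05 (14.3%), against 20.9% of all genes. The helicase subunits Mcm6 and Mcm7 rose (9.28% of all genes rose), and Ccnd2, Ccne2 and Cenpa fell (11.6% of all genes fell). In knockout hearts 4 of 35 passed (11.4%), against 26.1% of all genes: none rose (11.4% of all genes did) and Ccnd2, Ccne2, Ube2c and Cenpa fell (14.7% of all genes did). At an unadjusted p under 0.05 the counts were 9 of 35 in wild-type hearts (25.7%, against 30.9% of all genes) and 5 of 35 in the knockout (14.3%, against 35.8%). All 4 LPS arrays lay above all 4 saline arrays for 2 genes in wild-type (10.9% of all genes) and 1 in knockout hearts (12.3%), and below them for 3 (11.9%) and 5 (16.1%). Averaging the LPS response over the genotypes gave 8 of 35 genes (22.9%), against 34.9% of all genes. In this average Mcm3, Mcm6 and Mcm7 rose (15.4% of all genes) and Ccnd2, Ccne2, Ccna2, Ube2c and Cenpa fell (19.5% of all genes). In each comparison the share of cell cycle genes called lay below that of all genes, and this difference was not tested. Their median log2 change was -0.05 in wild-type and -0.08 in knockout hearts, beside medians of -0.0035 and -0.02 over all genes.

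**Figure D1:**
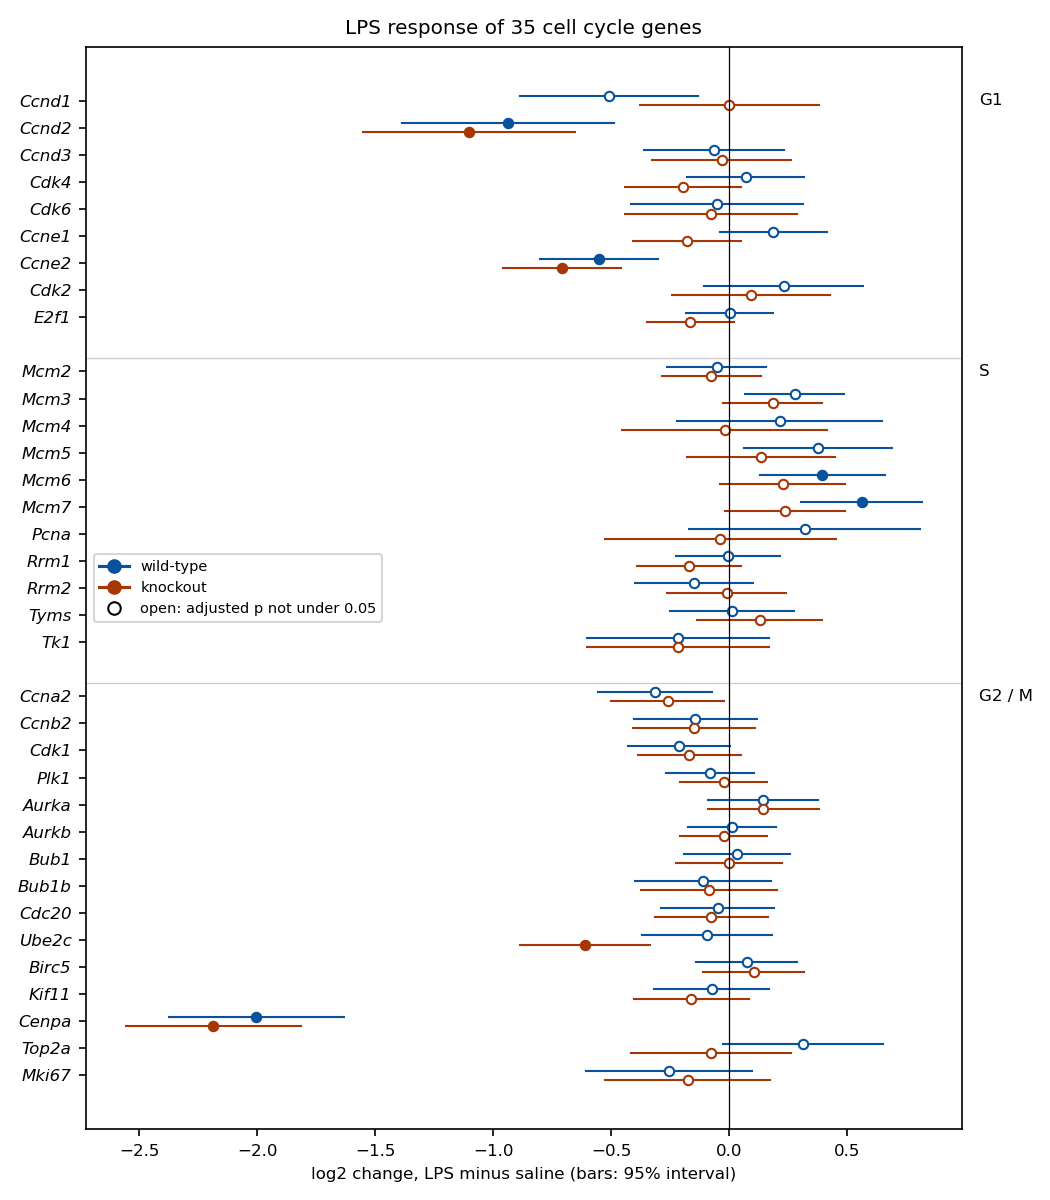
Log2 change after LPS (x axis, LPS minus saline) of the 35 cell cycle genes, grouped by phase, in wild-type and knockout hearts, with 95% confidence intervals. Cenpa lies farthest left, at -2.00 and -2.19, Ccnd2 and Ccne2 lie left of 0 in both genotypes, and most other genes sit near 0.

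Of the 9 G1 genes, 2 passed in each genotype in the probe sets used, the cyclins Ccnd2 and Ccne2, and both fell. The share called was 22.2% each time, beside 20.9% (wild-type) and 26.1% (knockout) over all genes. Counting falls alone, the shares over all genes were 11.6% and 14.7%, and the difference from G1 was not tested. Cyclin D2 (Ccnd2), which binds Cdk4 and Cdk6 in response to growth factors, had levels of 9.05, 9.15, 9.42 and 9.20 in the 4 wild-type saline arrays. The wild-type LPS arrays read 7.82, 8.26, 7.94 and 9.04. The last of these, array 4, lay just under the lowest saline array, and the other 3 lay far below it. In knockout hearts Ccnd2 was at 9.65, 9.25, 9.10 and 9.07 after saline and at 8.33, 8.31, 7.87 and 8.15 after LPS, and the groups were well apart. The log2 change was -0.94 ± 0.21 in wild-type (SE, adjusted p = 0.00407) and -1.10 ± 0.21 in knockout hearts (adjusted p = 0.000961), which is a 1.91-fold and a 2.15-fold lower level. Leaving out array 4 of the wild-type LPS group gave a wild-type change of -1.19. In RNA from whole tissue, fewer cells of a type and less RNA per cell cannot be told apart.

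Cyclin E2 (Ccne2), the partner of Cdk2 at the entry to S phase, was read by a single dim probe set. Its levels were 3.48, 3.57, 3.34 and 3.32 in wild-type saline and 2.85, 2.94, 2.70 and 3.01 in wild-type LPS hearts. They were 3.46, 3.61, 3.67 and 3.76 in knockout saline and 2.89, 2.50, 3.10 and 3.17 in knockout LPS hearts. The groups did not overlap in either genotype. The changes were -0.55 ± 0.12 (adjusted p = 0.00272) and -0.71 ± 0.12 (adjusted p = 0.000277). All levels of Ccne2 were below the median probe set, so the gene was left out when only genes above that median were tested.

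Cyclin D1 (Ccnd1), the D-type cyclin that follows mitogens, had wild-type levels of 8.63, 8.69, 8.86 and 9.04 after saline and 8.18, 8.66, 8.30 and 8.04 after LPS. The highest LPS array overlapped the lowest saline array. Its wild-type change of -0.51 ± 0.18 just missed the threshold (adjusted p = 0.0533), and it passed in 5 of the 16 settings that left out 1 array. In knockout hearts it was at 9.21, 8.71, 8.64 and 8.42 after saline and at 8.96, 9.004, 8.61 and 8.40 after LPS, with a change of 0.00025 ± 0.18. The other G1 genes did not pass with all 16 arrays. Cdk4 lay at 7.32 to 7.98 and Cdk6 at 6.77 to 7.69 over all 16 arrays. Cdk2, the kinase of the E-type cyclins, lay at 5.62 to 6.60, and E2f1, an E2F factor that drives entry into S phase, at 4.46 to 4.98. Cyclin E1 (Ccne1) had changes of 0.19 ± 0.11 and -0.18 ± 0.11, neither of which passed. Cyclin D3 (Ccnd3), at 7.89 to 8.64, had changes of -0.07 and -0.03 in the probe set used. Without wild-type LPS array 4 and knockout LPS array 2 the wild-type change of Ccnd3 was -0.24 and passed (adjusted p = 0.047).

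Markers of vessel wall and stroma moved in the same arrays. Beside the counts below, 9.28% of all genes rose and 11.6% fell in wild-type hearts. In knockout hearts 11.4% rose and 14.7% fell, and in the mean response 15.4% rose and 19.5% fell. The 10 endothelial markers had 2 falls and 1 rise in wild-type hearts, and 4 falls and 1 rise in the knockout. Their array means ran from 8.55 to 8.89 in wild-type saline, 8.03 to 9.02 in wild-type LPS, 8.52 to 8.97 in knockout saline and 8.06 to 8.46 in knockout LPS hearts. The highest wild-type LPS value belonged to array 4, the array in which Ccnd2 was also highest of its group. That array also had the highest fibroblast and smooth muscle means of its group. In knockout LPS hearts the highest values did not match: the highest endothelial value belonged to array 3, where Ccnd2 was lowest. Array 1, where Ccnd2 was highest, had an endothelial mean of 8.33. Of 9 fibroblast markers 3 fell in each genotype and none rose, and their means ran from 9.96 to 10.19 in wild-type saline and 8.74 to 9.88 in wild-type LPS hearts. In knockout hearts the fibroblast means were 9.95 to 10.10 and 8.71 to 9.59. Of 9 smooth muscle and pericyte markers 7 fell in each genotype. Their array means lay between 8.995 and 9.30 in wild-type saline and between 7.64 and 8.51 in wild-type LPS hearts. In the knockout they lay between 8.87 and 9.29 after saline and between 8.13 and 8.42 after LPS. Falls were not limited to vessel wall and stroma. LPS lowered 4 of the 10 cardiomyocyte markers in the wild type, 5 in the knockout and 8 in the mean response, with 0 rises each time. For the 5 adipocyte markers the falls numbered 3 (wild-type) and 2 (knockout), again with 0 rises. The part of any of these cells in the fall of Ccnd2 and of the genes below was not tested.

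The S phase genes that rose were subunits of the replicative helicase, a family whose promoters are known for E2F sites. The promoter windows of the 3 called subunits are shown here to set their E2F words side by side. Each runs from 250 bases before to 50 bases after a transcription start in RefSeq's annotation of GRCm38.p6, 5′ to 3′ on the gene's strand. Capitals mark each match to 1 of 4 E2F words (TTTCCCGC, TTTGGCGC, TTTCGCGC or TTTGCCGC) on either strand. The windows are Mcm3 at chr1:20820263-20820562 and Mcm6 at chr1:128359656-128359955, both on the minus strand, and the Mcm7 window with matches, at chr5:138171834-138172133 on the minus strand.
Mcm3: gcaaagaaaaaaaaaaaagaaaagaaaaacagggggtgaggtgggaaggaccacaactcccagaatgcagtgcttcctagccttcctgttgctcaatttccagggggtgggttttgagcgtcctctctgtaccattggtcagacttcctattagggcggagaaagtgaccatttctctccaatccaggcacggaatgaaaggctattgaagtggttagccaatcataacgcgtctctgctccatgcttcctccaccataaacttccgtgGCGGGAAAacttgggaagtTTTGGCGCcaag
Mcm6: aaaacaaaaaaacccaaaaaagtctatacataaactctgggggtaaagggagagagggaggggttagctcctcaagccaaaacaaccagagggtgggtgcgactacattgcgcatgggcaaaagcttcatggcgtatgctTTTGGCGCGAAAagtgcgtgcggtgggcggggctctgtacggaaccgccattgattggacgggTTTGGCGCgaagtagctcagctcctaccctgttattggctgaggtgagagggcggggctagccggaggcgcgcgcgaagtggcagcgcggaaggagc
Mcm7: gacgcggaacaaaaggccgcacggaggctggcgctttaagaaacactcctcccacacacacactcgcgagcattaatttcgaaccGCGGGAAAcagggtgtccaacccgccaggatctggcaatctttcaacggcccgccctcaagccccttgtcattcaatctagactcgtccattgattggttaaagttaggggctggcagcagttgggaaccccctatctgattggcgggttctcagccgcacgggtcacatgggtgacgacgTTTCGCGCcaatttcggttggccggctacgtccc
The Mcm3 window holds 2 matches, the Mcm6 window 3, of which a pair overlaps, and the Mcm7 window 2, of which 1 overlaps a CCAAT box. Such a match describes the letters of the window and is not a measured binding site.

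Mcm7 had the clearest rise, and it was in wild-type hearts. Its levels were 7.18, 7.60, 7.44 and 7.37 after saline and 7.72, 7.94, 8.11 and 8.06 after LPS, without overlap. In knockout hearts they were 7.66, 7.50, 7.38 and 7.65 after saline and 7.65, 7.95, 7.70 and 7.85 after LPS, where the lowest LPS array fell among the saline arrays. The changes were 0.56 ± 0.12 (adjusted p = 0.00278) and 0.23 ± 0.12 (adjusted p = 0.175). Without wild-type saline arrays 1 and 4 the wild-type change was 0.44 and did not pass (adjusted p = 0.0751). The difference between the genotypes, -0.33 ± 0.17, did not pass either (adjusted p = 0.959), so the response of Mcm7 was not shown to depend on the receptor.

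Mcm6 followed with smaller steps. It was at 6.79, 6.69, 6.91 and 6.89 in wild-type saline and 6.95, 7.38, 7.43 and 7.08 in wild-type LPS hearts, again without overlap. Knockout hearts had 7.16, 6.81, 6.83 and 6.91 after saline and 7.06, 7.34, 7.16 and 7.05 after LPS, with overlap. The changes were 0.39 ± 0.13 (adjusted p = 0.0328) and 0.23 ± 0.13 (adjusted p = 0.211). The wild-type call of Mcm6 was lost without wild-type saline array 1, 2 or 4 or wild-type LPS array 2 or 3, where the adjusted p ran from 0.0521 to 0.114. It was also lost when only the wild-type groups were fitted (adjusted p = 0.0708). It rests on a narrow margin.

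Mcm3 was called only in the mean over both genotypes. Its levels were 5.43, 5.45, 5.72 and 5.61 in wild-type saline and 5.93, 5.91, 5.88 and 5.61 in wild-type LPS hearts, of which the last, array 4, overlapped the saline arrays. They were 5.65, 5.58, 5.46 and 5.54 in knockout saline and 5.67, 5.79, 5.78 and 5.72 in knockout LPS hearts. The knockout LPS arrays all lay above the saline arrays, but by little. The mean response was 0.23 ± 0.07 (adjusted p = 0.0162), and in wild-type hearts alone the change was 0.28 ± 0.10 (adjusted p = 0.058). Leaving out that array 4 gave a wild-type change of 0.35, which passed (adjusted p = 0.0107). Without wild-type saline arrays 1 and 4 the mean response no longer passed (adjusted p = 0.0694).

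**Figure D2:**
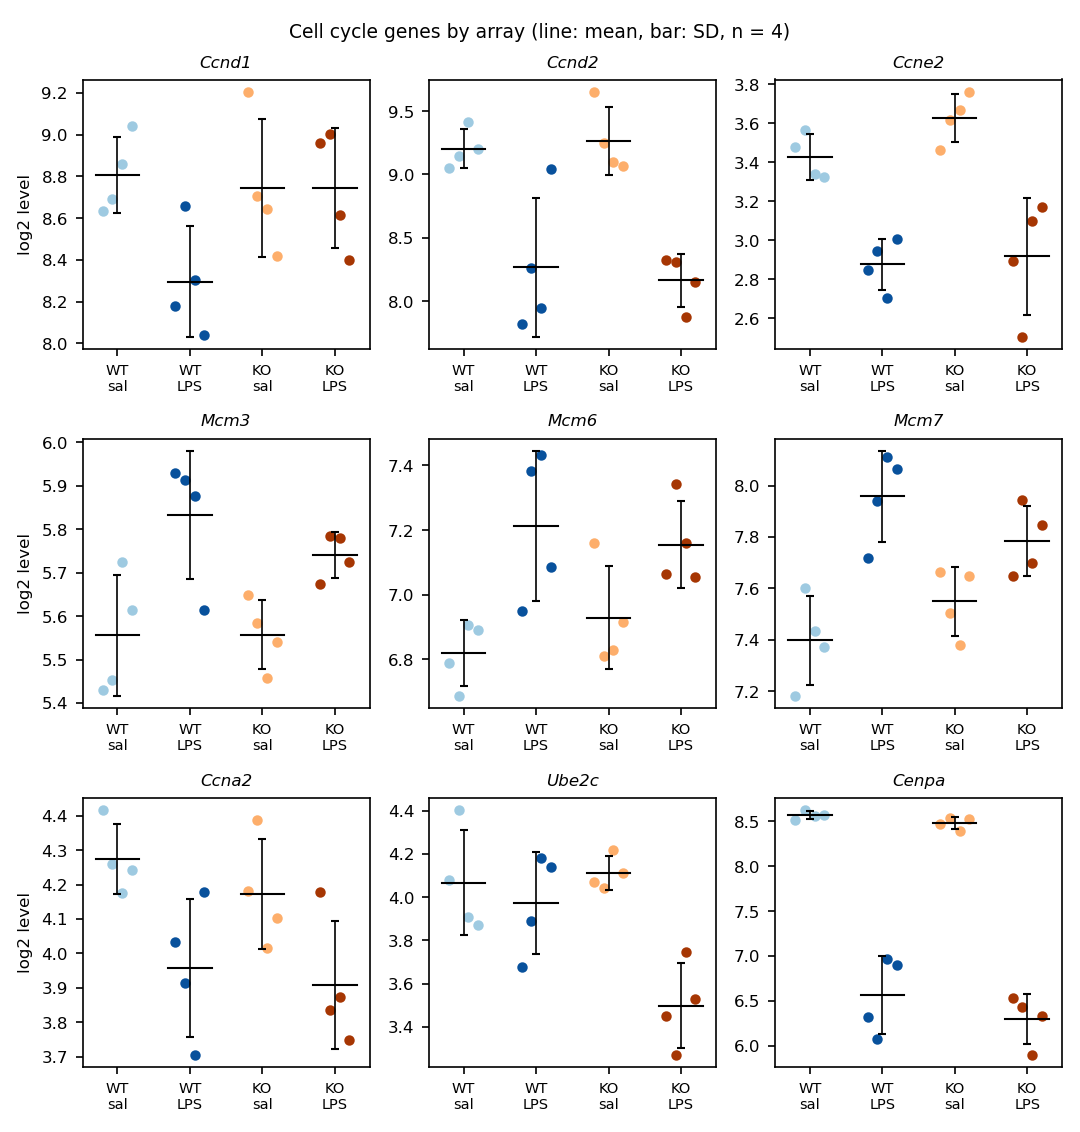
Log2 level (y axis, a scale of its own in each panel) of cell cycle genes in each of the 16 arrays, by group, with the group mean and SD (n = 4). Ccnd2, Ccne2 and Cenpa drop after LPS in both genotypes, Mcm7 rises most clearly in wild-type hearts, and Ube2c drops in knockout hearts.

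With all 16 arrays the rest of the helicase and of S phase did not pass in any of these LPS comparisons. Mcm5 had changes of 0.37 ± 0.15 and 0.13 ± 0.15, Mcm4 of 0.21 ± 0.21 and -0.02 ± 0.21, and Mcm2 of -0.05 ± 0.10 and -0.08 ± 0.10. The mean response of Mcm5 passed in 3 of the 16 settings that left out 1 array, and at 0.33 without wild-type saline arrays 1 and 4 (adjusted p = 0.0468). That of Mcm4 passed without wild-type LPS array 4 and knockout LPS array 2, at 0.29 (adjusted p = 0.01), as did its wild-type change of 0.37 (adjusted p = 0.0247). Over the 6 helicase subunits, 5 changes were positive in wild-type and 4 in knockout hearts. Pcna, the sliding clamp that holds DNA polymerase on its template, read 9.69, 9.75, 9.47 and 9.58 in wild-type saline and 9.83, 10.21, 10.18 and 9.54 in wild-type LPS hearts. In knockout hearts it read 9.48, 9.81, 9.84 and 9.72 after saline and 9.95, 8.73, 10.11 and 9.91 after LPS. Knockout LPS array 2 stood alone at 8.73, and the Pcna changes of 0.32 ± 0.23 and -0.04 ± 0.23 did not pass. Without that array the knockout change of Pcna was 0.28 (adjusted p = 0.197) and its mean response was 0.30, which passed (adjusted p = 0.0268). With wild-type LPS array 4 left out as well, the wild-type change of 0.45 (adjusted p = 0.00425) and the mean response of 0.36 (adjusted p = 0.0011) both passed. No enzyme of nucleotide supply named here passed with all 16 arrays. Rrm1, the large subunit of ribonucleotide reductase, lay at 6.77 to 7.29 over all arrays, and its partner Rrm2 at 3.46 to 4.12. Thymidylate synthase (Tyms) lay at 3.08 to 3.85 and thymidine kinase (Tk1) at 3.65 to 4.81. Tk1 changed by -0.22 ± 0.18 in each genotype. The median change of the 11 S phase genes was 0.21 in wild-type hearts and -0.01 in the knockout. Of the 11, 0 passed in knockout hearts by limma, beside 26.1% of all genes. At an unadjusted p under 0.05 the count was also 0, beside 35.8% of all genes.

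Neutrophil markers rose in the same comparison. Among 11 such markers there were 5 rises in wild-type hearts, 6 in the knockout and no falls, and their array means lay between 3.97 and 4.11 in wild-type saline and between 5.17 and 5.69 in wild-type LPS hearts. In the knockout they lay between 4.00 and 4.10 after saline and between 5.58 and 5.85 after LPS. The 11 macrophage and monocyte markers split, with 3 rises and 3 falls in each genotype. Of 5 B cell markers 2 fell in each genotype, and of 8 T and NK cell markers 1 rose in wild-type hearts and none was called in the knockout. The part of leukocytes in the rise of the helicase genes was not tested. None of these markers has a defined 0 on this scale.

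In G2 and mitosis the response was dominated by 1 gene. Cenpa encodes the histone H3 variant that marks the centromere and seeds the kinetochore. Its levels were 8.52, 8.63, 8.55 and 8.57 in wild-type saline hearts and 6.32, 6.07, 6.96 and 6.90 in wild-type LPS hearts. In knockout hearts they were 8.46, 8.54, 8.40 and 8.53 after saline and 6.53, 6.43, 5.90 and 6.33 after LPS. The saline arrays of both genotypes lay within a narrow band, and the LPS arrays lay far below it. The changes were -2.00 ± 0.18 (adjusted p = 4.04e-07) and -2.19 ± 0.18 (adjusted p = 1.41e-07), a 4.01-fold and a 4.55-fold lower level. They were the largest changes among the 35 genes. With the mean of all 3 Cenpa probe sets the changes were -1.22 and -1.09 and still passed.

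Ube2c, the ubiquitin-conjugating enzyme that works with the anaphase-promoting complex, was at 4.08, 4.40, 3.91 and 3.87 in wild-type saline and 3.68, 3.89, 4.18 and 4.14 in wild-type LPS hearts, with full overlap. In knockout hearts it was at 4.07, 4.04, 4.22 and 4.11 after saline and at 3.45, 3.27, 3.75 and 3.53 after LPS. All 4 knockout LPS arrays lay below all knockout saline arrays. All levels of Ube2c, from its only probe set, were below the median probe set. The gene was therefore left out when only genes above that median were tested. The change was -0.09 ± 0.13 in wild-type (adjusted p = 0.697) and -0.61 ± 0.13 in knockout hearts (adjusted p = 0.00217). The difference between the genotypes was -0.52 ± 0.18, with an unadjusted p of 0.0127 and an adjusted p of 0.959 by limma. The response of Ube2c was therefore not shown to differ between genotypes.

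Cyclin A2 (Ccna2), which serves S phase with Cdk2 and mitosis with Cdk1, was called only in the mean over both genotypes, at -0.29 ± 0.08 (adjusted p = 0.00935). It was at 4.42, 4.26, 4.18 and 4.24 in wild-type saline, 4.03, 3.92, 3.71 and 4.18 in wild-type LPS, 4.18, 4.39, 4.02 and 4.10 in knockout saline and 4.18, 3.84, 3.88 and 3.75 in knockout LPS hearts. The groups met or overlapped in each genotype, and neither genotype passed alone (adjusted p = 0.0605 and 0.106). All levels of Ccna2 were also below the median probe set. With array 4 of the wild-type LPS group left out, the wild-type change was -0.39 and passed (adjusted p = 0.0193).

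The classical proliferation genes showed no change that passed with all 16 arrays. Mki67 was at 4.30, 4.35, 4.81 and 4.53 in wild-type saline and 4.25, 3.99, 4.01 and 4.71 in wild-type LPS hearts. The knockout arrays read 4.67, 4.60, 4.21 and 4.26 after saline and 4.35, 4.31, 4.43 and 3.93 after LPS. Its changes were -0.26 ± 0.17 and -0.18 ± 0.17, with 95% intervals of -0.61 to 0.09 and -0.53 to 0.17. Without array 4 of the wild-type LPS group the mean response of Mki67 was -0.29 and passed (adjusted p = 0.032). Top2a had changes of 0.31 ± 0.16 and -0.08 ± 0.16, and the first of these passed in 1 of the 16 settings that left out 1 array. Cdk1, the mitotic kinase, had changes of -0.21 ± 0.10 and -0.17 ± 0.10, and in the mean of both genotypes it just missed the threshold (adjusted p = 0.0509). That mean response of Cdk1 passed in 5 of the 16 settings that left out 1 array, among them those without wild-type LPS array 4 (-0.22, adjusted p = 0.0295) and without knockout LPS array 2 (-0.20, adjusted p = 0.0496). Its knockout LPS arrays, at 3.96, 4.11, 4.12 and 3.94, all lay below its knockout saline arrays, at 4.21, 4.16, 4.15 and 4.29.

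The spindle and checkpoint genes below did not pass with all 16 arrays in the probe sets used, and their ranges over these arrays follow. Aurka, the centrosomal kinase, lay at 3.89 to 4.52, and Kif11, the motor that separates spindle poles, at 3.37 to 3.96. Without both of those LPS arrays Kif11 had a knockout change of -0.27 (adjusted p = 0.0376) and a mean response of -0.21 (adjusted p = 0.0164), which passed. Bub1b, a checkpoint kinase, lay at 3.66 to 4.39, and Birc5 (survivin), a member of the passenger complex, at 3.28 to 4.01. Cyclin B2 (Ccnb2) lay at 3.49 to 4.21. Plk1, the polo kinase, lay at 4.90 to 5.17, and Cdc20, the activator of the anaphase-promoting complex, at 4.83 to 5.31. Of the 15 genes, 5 had a positive change in wild-type hearts and 2 in the knockout, and their median change was -0.08 and -0.09. The mean of the 15 levels ran from 4.28 to 4.38 in wild-type saline and 4.07 to 4.32 in wild-type LPS arrays, and from 4.31 to 4.37 and 4.07 to 4.12 in the knockout groups.

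Mitotic genes share another promoter word, the cell cycle homology region (CHR, TTTGAA), through which their transcription is held back outside G2. It was marked in capitals, on either strand, in the windows of the 2 mitotic genes that fell and had a window, and in Mcm2, the one S phase gene that carried it. The windows are Cenpa at chr5:30666636-30666935 and Ube2c at chr2:164769679-164769978, both on the plus strand, and Mcm2 at chr6:88898731-88899030 on the minus strand, all in GRCm38.p6.
Cenpa: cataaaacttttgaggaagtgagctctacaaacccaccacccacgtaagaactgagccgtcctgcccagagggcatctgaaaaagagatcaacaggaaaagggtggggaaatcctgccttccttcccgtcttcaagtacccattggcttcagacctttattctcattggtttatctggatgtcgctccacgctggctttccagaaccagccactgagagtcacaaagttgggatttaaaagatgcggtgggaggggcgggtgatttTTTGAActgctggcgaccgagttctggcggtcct
Ube2c: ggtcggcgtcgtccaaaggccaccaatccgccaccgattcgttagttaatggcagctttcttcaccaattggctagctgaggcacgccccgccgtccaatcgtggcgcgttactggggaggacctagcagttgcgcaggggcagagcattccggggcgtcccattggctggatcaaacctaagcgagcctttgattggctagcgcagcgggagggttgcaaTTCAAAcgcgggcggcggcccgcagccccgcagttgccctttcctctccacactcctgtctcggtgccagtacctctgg
Mcm2: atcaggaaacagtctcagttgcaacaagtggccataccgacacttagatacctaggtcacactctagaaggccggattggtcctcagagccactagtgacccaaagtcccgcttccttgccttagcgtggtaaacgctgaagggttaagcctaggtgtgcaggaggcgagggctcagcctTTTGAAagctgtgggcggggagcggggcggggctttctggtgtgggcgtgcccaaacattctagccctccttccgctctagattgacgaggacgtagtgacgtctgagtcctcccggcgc
Each of these windows holds 1 match. Mcm2 has no match to the E2F words. Its changes of -0.05 ± 0.10 and -0.08 ± 0.10 did not pass, nor did those of its other probe set, -0.07 and -0.35. It was picked as a helicase gene that was not called, and a link between these words and the changes was not tested.

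Over all genes with a window, the words fell by phase. Of the 35 genes, 29 had at least 1 window, and these genes had 31 windows. Not covered were Ccnd1, Ccnd2, Ccne2, Mcm4, Ccna2 and Aurkb. The E2F words were in 19.4% of the 31 windows, against 2.26% of all 32851 RefSeq windows of this length, and their carriers were Cdk2, Mcm3, Mcm5, Mcm6, Mcm7 and Cdk1. The CHR was in 38.7%, against 17.9% of all windows, in 11 of 13 genes of G2 and mitosis, 1 of 10 S phase genes and 0 of 6 G1 genes. The CCAAT box (CCAAT) was in 74.2%, against 37.4%, and was found in 12 of 13 genes of G2 and mitosis and 8 of 10 S phase genes. The E-box (CACGTG) was in 9.68%, against 7.15%, in Cdk4, Cdk6 and Tyms. A match to 1 of 3 NF-kB words was in 3.23%, against 0.341%, in Birc5 alone. Not every carrier of a word was called. Of the 6 carriers of an E2F word 3 were called in the mean response, and of the 12 carriers of a CHR, Cenpa and Ube2c were. Mcm5, Cdk1 and Cdk2 carry an E2F word and were not called. Over all genes the share called in the mean response was 34.9%.

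Most genes were read by more than 1 probe set, which gives a second look at each change. The 35 genes had 87 probe sets of their own, and 9 genes had 1 only, Ccne2 and Ube2c among them. For Ccnd2 all 7 probe sets had a negative change in both genotypes, from -1.09 to -0.26 in wild-type and from -1.22 to -0.36 in knockout hearts. Of the 6 not used above, 5 passed in wild-type and 6 in knockout hearts. For Mcm7 all 3 other probe sets passed in wild-type hearts and none in knockout hearts. Their changes were 0.41 to 0.54 in wild-type and 0.04 to 0.31 in knockout hearts, the last with an adjusted p of 0.0571. For Cenpa a dimmer probe set also fell, with changes of -1.62 and -1.04, and the third stayed near a mean level of 2.91 in all groups.

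Other probe sets were less uniform. Of the 2 further probe sets of Mcm6, 1 had changes of 0.60 and 0.63 and passed in knockout hearts, and the other lay near 3.09. Of the 4 further probe sets of Mcm3, 1 passed in wild-type hearts only, at 0.45, and a different one in knockout hearts only, at 0.26. The other probe set of Ccna2 did not pass. For Ccnd3 a second, dimmer probe set changed by 0.64 in each genotype and passed in both, while the brighter one did not move. A second probe set of Kif11 passed in knockout hearts, at -0.23. These 2 were the only other probe sets of uncalled genes to pass in an LPS comparison.

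**Figure D3:**
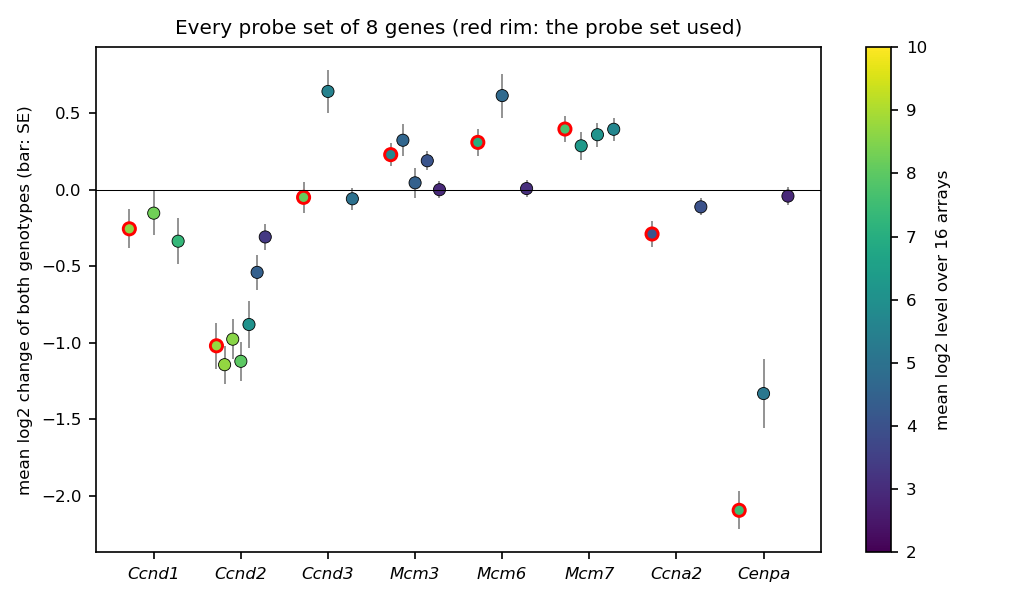
Mean log2 change after LPS of both genotypes (y axis, with SE) for every probe set of 8 cell cycle genes (x axis), coloured by its mean log2 level and rimmed in red where it is the one used. All 7 probe sets of Ccnd2 lie below 0, those of Mcm7 lie above 0, and those of Cenpa spread from near 0 to -2.09, with the dimmest nearest 0.

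The second question was whether loss of the receptor altered these genes. None of the 35 passed by limma between knockout and wild-type hearts after saline or after LPS, where 0.0055% of all genes passed in each, nor in the interaction, where 0% did. At an unadjusted p under 0.05, 1 gene (2.86%, against 3.48% of all genes) was apart after saline, Mcm5, which was 0.38 ± 0.15 higher in knockout hearts. After LPS there were 4 (11.4%, against 7.56% of all genes): Ccnd1 (0.45 ± 0.18), Ccne1 (-0.31 ± 0.11), E2f1 (-0.21 ± 0.09) and Ube2c (-0.47 ± 0.13), given as knockout minus wild-type. In the interaction there were 2 (5.71%, against 4.47% of all genes), Ccne1 at -0.37 ± 0.15 and Ube2c at -0.52 ± 0.18. After saline the arrays of the genotypes overlapped for all 35 genes, while 1.81% of all genes lay wholly higher and 2.08% wholly lower in knockout hearts. After LPS they did not overlap for Ccne1 and E2f1, both lower in all knockout arrays (1.18% of all genes), and for no gene upward (1.08%). These values miss the threshold and do not show that the genotypes act alike. The 95% intervals of the knockout effect ran from -0.45 (Cenpa) to 0.69 (Mcm5) after saline and from -0.76 (Pcna) to 0.83 (Ccnd1) after LPS. Those of the interaction lay within 1 log2 unit of 0 for 33 of the 35 genes and reached -1.05 for Pcna and 1.05 for Ccnd1.

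The LPS changes of the 2 genotypes share no arrays and can be set against each other. Across the 35 genes their Pearson correlation was 0.908 and their Spearman correlation 0.681, as a description, since genes are not independent replicates. The sign was the same for 26 of 35 genes (74.3%), beside 73.9% of all genes, and 3 genes passed in both genotypes (8.57%, beside 16.6% of all genes). Without Cenpa, Ccnd2 and Ccne2 the Pearson correlation over the other 32 genes was 0.551. The higher correlation over all 35 thus rests on these 3 genes.

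**Figure D4:**
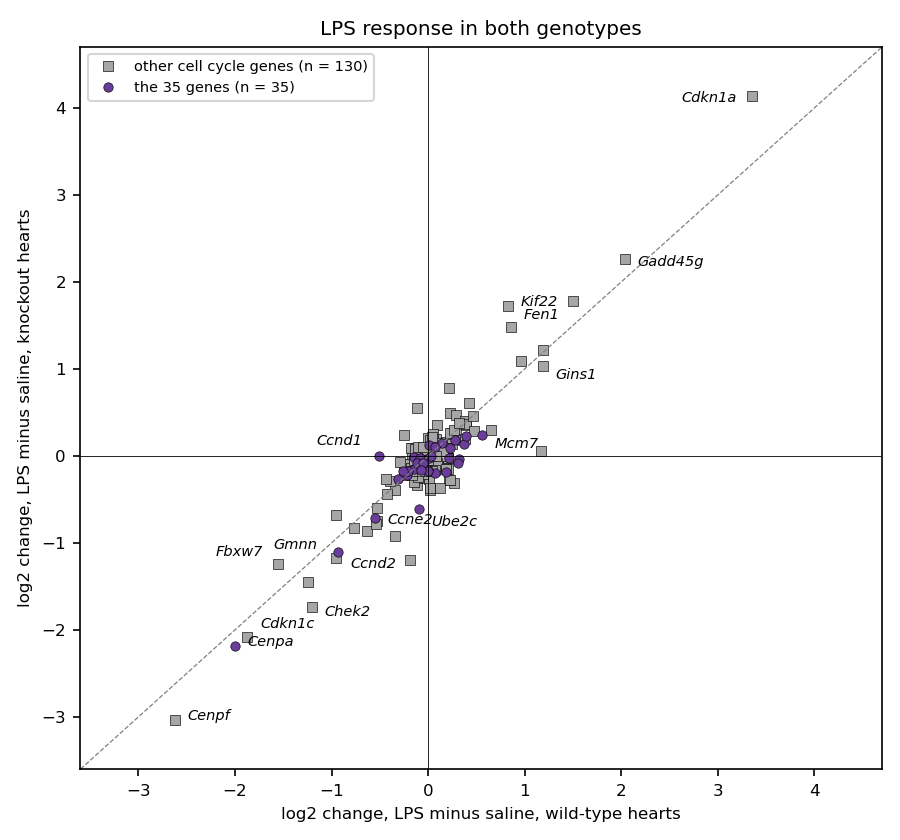
Log2 change after LPS in wild-type hearts (x axis) against that in knockout hearts (y axis) for the 35 cell cycle genes and for 130 other cell cycle genes. Cenpa, Cenpf and Cdkn1c lie at the lower left and Cdkn1a at the upper right, near the line of equal change.

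Around these 35 genes lie the regulators of the cycle, of which 130 were measured in 7 lists. Of the 130, 37 passed in at least 1 genotype (28.5%, beside 30.4% of all genes) and 20 in both (15.4%, beside 16.6%). CDK inhibitors had the highest share called of the 7 lists, with 37.5% in wild-type and 50% in knockout hearts. The p53 and DNA damage checkpoint list was close behind, with 35.7% and 42.9%. In wild-type hearts 2 of the 8 rose and 1 fell (9.28% and 11.6% of all genes), and the knockout hearts had 2 rises and 2 falls (11.4% and 14.7% of all genes). Cdkn1a (p21), which halts CDKs downstream of p53 and other stress signals, was at 7.37, 7.48, 8.22 and 7.97 in wild-type saline and 10.61, 11.57, 11.49 and 10.77 in wild-type LPS hearts. In knockout hearts it was at 6.96, 6.63, 6.45 and 7.38 after saline and at 10.97, 11.68, 10.49 and 10.83 after LPS. Every LPS array lay more than 2 log2 units above every saline array. Its changes were 3.35 ± 0.28 (adjusted p = 2.62e-07) and 4.14 ± 0.28 (adjusted p = 2.25e-08). A dimmer probe set of Cdkn1a changed by 2.37 and 2.49 and also passed. After saline the knockout level differed by -0.91 in the probe set used and by -0.24 in the dimmer one, and neither difference passed.

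The second inhibitor moved the other way. Cdkn1c (p57), an imprinted inhibitor of the same family, was at 7.25, 7.44, 7.94 and 7.46 in wild-type saline and 5.58, 5.45, 5.30 and 6.27 in wild-type LPS hearts. It was at 7.96, 7.43, 7.25 and 7.16 in knockout saline and 5.38, 5.03, 5.41 and 5.67 in knockout LPS hearts. The groups did not overlap, and the changes were -1.87 ± 0.22 (adjusted p = 1.10e-05) and -2.08 ± 0.22 (adjusted p = 3.16e-06). Cdkn2d (p19), an inhibitor of Cdk4 and Cdk6, rose by 0.97 ± 0.19 and 1.09 ± 0.19. Cdkn1b (p27) had changes of -0.53 ± 0.21 (adjusted p = 0.0863) and -0.60 ± 0.21 (adjusted p = 0.0427). Its knockout change was -0.33 with the mean of all its probe sets and did not pass (adjusted p = 0.0588). The knockout call of Cdkn1b was also lost in 10 of the 16 settings that left out 1 array.

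In the retinoblastoma and E2F family, of 14 genes, wild-type hearts had 1 rise and 2 falls and knockout hearts 3 rises and 2 falls. That is 21.4% and 35.7% called, beside 20.9% and 26.1% of all genes. E2f6, a repressor of E2F targets, changed by -0.64 ± 0.19 and -0.86 ± 0.19, or by -0.35 and -0.46 with the mean of all its probe sets, and its wild-type call was lost in 6 of the 16 settings that left out 1 array. E2f3, an activator, changed by 0.23 ± 0.15 (adjusted p = 0.336) and 0.50 ± 0.15 (adjusted p = 0.0184). The knockout call of E2f3 was lost without knockout saline array 4 (adjusted p = 0.0595) or knockout LPS array 1 (adjusted p = 0.0707). Among 14 genes of CDK activation and cyclin turnover none rose, and there was 1 fall in wild-type against 3 in knockout hearts. Their shares called, 7.14% and 21.4%, lay below the 20.9% and 26.1% of all genes. Fbxw7, the ubiquitin ligase adaptor that marks cyclin E for destruction, fell, with changes of -1.56 ± 0.19 and -1.24 ± 0.19. Wee1, the kinase that holds Cdk1 inactive, changed by -0.34 ± 0.18 (adjusted p = 0.208) and -0.93 ± 0.18 (adjusted p = 0.000932).

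Origin licensing and firing had 1 rise and 1 fall among 17 genes in each genotype (11.8%, beside 20.9% and 26.1% of all genes). Gins1, a subunit of the active helicase, was at 5.31, 5.38, 4.82 and 5.02 in wild-type saline and 6.39, 6.60, 6.52 and 5.76 in wild-type LPS hearts. It was at 4.80, 4.89, 5.10 and 5.08 in knockout saline and 5.96, 5.27, 6.54 and 6.22 in knockout LPS hearts. Gins1 was higher in each LPS array, by 1.19 ± 0.23 and 1.03 ± 0.23, or by 0.72 and 0.58 with the mean of all its probe sets. Geminin (Gmnn), which blocks a second loading of the helicase, was at 10.05, 9.94, 9.69 and 9.87 in wild-type saline and 8.49, 8.85, 8.94 and 9.45 in wild-type LPS hearts. In knockout hearts Gmnn was at 9.45, 9.91, 9.73 and 9.85 after saline and at 8.90, 7.84, 8.61 and 8.91 after LPS. It was lower in each LPS array, with changes of -0.96 ± 0.22 (adjusted p = 0.00427) and -1.17 ± 0.22 (adjusted p = 0.000731). Without wild-type saline arrays 1 and 4 its wild-type change of -0.89 missed the threshold (adjusted p = 0.0598).

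At the replication fork and in nucleotide supply the 22 genes had 3 rises and 3 falls in wild-type hearts, and 3 rises and 5 falls in knockout hearts. Fen1, the nuclease that trims Okazaki fragments, was at 8.28, 8.34, 8.25 and 8.16 in wild-type saline and 9.44, 9.38, 9.12 and 8.51 in wild-type LPS hearts. It was at 8.14, 8.07, 8.28 and 8.35 in knockout saline and 9.76, 9.55, 10.19 and 9.27 in knockout LPS hearts. The groups were apart, by 0.86 ± 0.19 and 1.48 ± 0.19, and the wild-type change was 1.42 with the mean of all Fen1 probe sets. Rpa3, a subunit of the single-strand binding protein, fell, with changes of -1.24 ± 0.31 and -1.45 ± 0.31, and its wild-type change missed the threshold without wild-type saline arrays 1 and 4 (adjusted p = 0.0834). Dut, which clears dUTP, fell, with changes of -0.76 ± 0.14 and -0.83 ± 0.14. Both directions were called in each genotype, as they were among all genes. The share called was 27.3% in wild-type and 36.4% in knockout hearts, beside 20.9% and 26.1% of all genes.

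The 41 further genes of the mitotic apparatus had 2 rises and 2 falls in wild-type hearts, and 2 rises and 3 falls in knockout hearts. Their shares called, 9.76% and 12.2%, lay below the 20.9% and 26.1% of all genes. Cenpf, a kinetochore and nuclear matrix protein, was at 8.16, 7.71, 7.81 and 8.49 in wild-type saline and 6.30, 5.58, 4.62 and 5.19 in wild-type LPS hearts. It was at 8.61, 8.60, 9.35 and 8.86 in knockout saline and 5.25, 4.17, 6.53 and 7.33 in knockout LPS hearts. Like Cenpa, Cenpf was lower in every LPS array, with changes of -2.62 ± 0.50 (adjusted p = 0.0011) and -3.03 ± 0.50 (adjusted p = 0.000252). With the mean of all Cenpf probe sets they were -0.99 and -1.27 and still passed. The knockout LPS arrays of Cenpf were widely spread.

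Kif22, a chromosome-arm motor, was at 6.29, 6.51, 6.38 and 6.54 in wild-type saline and 7.76, 7.22, 6.82 and 7.23 in wild-type LPS hearts. The knockout arrays read 6.55, 6.50, 6.77 and 6.23 after saline and 8.26, 9.19, 7.87 and 7.63 after LPS. Its changes were 0.83 ± 0.26 (adjusted p = 0.0309) and 1.73 ± 0.26 (adjusted p = 0.000114), or 0.44 and 0.61 with the mean of all its probe sets. The wild-type call of Kif22 was lost in 6 of the 16 settings that left out 1 array. Ncapd2, a condensin subunit, fell, with changes of -0.95 ± 0.13 and -0.68 ± 0.13, and with one of -0.50 in wild-type hearts with the mean of all its probe sets.

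In the p53 and DNA damage checkpoint list 3 of 14 genes rose in each genotype, beside 2 falls in wild-type hearts and 3 in the knockout. That is 35.7% and 42.9% called, against 20.9% and 26.1% of all genes, a difference that was not tested. Gadd45g and Gadd45b, stress-induced growth arrest genes, rose. Gadd45g was at 6.95, 6.39, 6.76 and 7.23 in wild-type saline and 8.83, 9.71, 9.28 and 7.64 in wild-type LPS hearts, and rose by 2.03 ± 0.36 and 2.26 ± 0.36. Gadd45b rose by 1.19 ± 0.28 and 1.22 ± 0.28. Chek2, the checkpoint kinase activated by ATM, was at 5.48, 5.55, 6.17 and 5.80 in wild-type saline and 4.29, 4.28, 4.27 and 5.37 in wild-type LPS hearts. In knockout hearts Chek2 was at 6.33, 6.33, 6.22 and 6.26 after saline and at 4.21, 4.60, 4.24 and 5.13 after LPS. The groups did not overlap, and the changes were -1.20 ± 0.24 (adjusted p = 0.00158) and -1.74 ± 0.24 (adjusted p = 5.04e-05). Array 4 was the highest LPS array of Chek2 in each genotype.

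**Figure D5:**
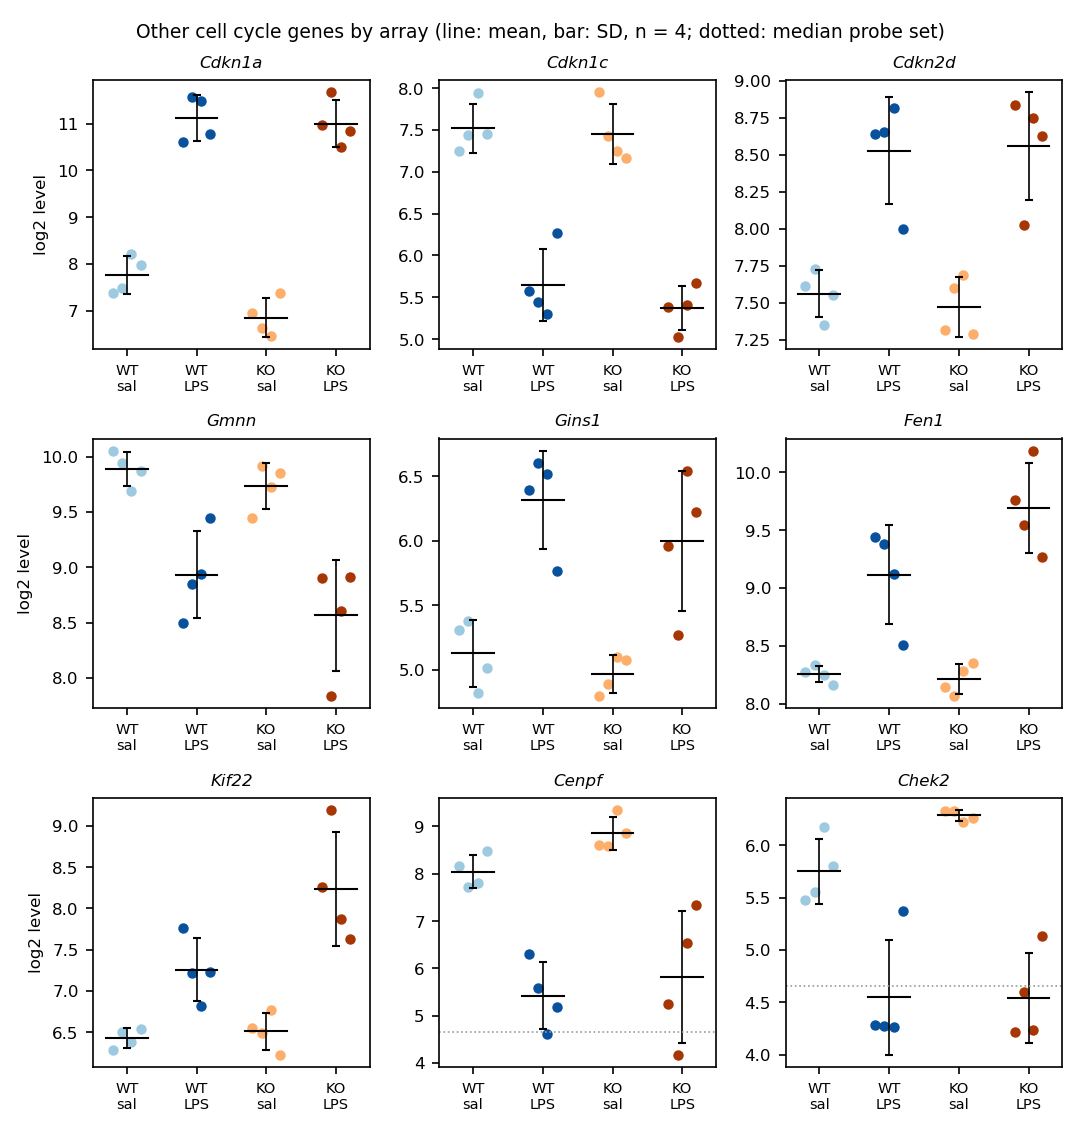
Log2 level (y axis, a scale of its own in each panel) of 9 further cell cycle regulators in each of the 16 arrays, by group, with the group mean and SD (n = 4) and, where it falls in the panel, the median probe set as a dotted line. Cdkn1a, Cdkn2d, Gins1, Fen1 and Kif22 are higher and Cdkn1c, Gmnn, Cenpf and Chek2 lower in every LPS array than in every saline array of the same genotype.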

How the data were processed

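RNA of 16 mouse ventricle samples was measured on Affymetrix arrays, 1 array per sample. The deposited values are log2 levels per probe set that were made with RMA (background correction, quantile normalization and probe summary), per the submitters' processing notes; its version is not given in the sources used here. Precision is limited by the number of arrays, since there is no read depth. The file has 45101 probe sets with 0 missing values, of which 34945 carried 1 gene symbol, 932 several and 9160 none here; 64 controls were left out. Each of 18193 genes was represented by its brightest probe set. All 16 arrays entered 1 linear model of the 4 group means (limma 3.58.1, R 4.3.3; eBayes with trend; 12 residual degrees of freedom). The p-values were two-sided, adjusted by Benjamini-Hochberg over all genes, and called under 0.05. Errors of changes are limma standard errors. The script was tested on simulated data.

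The members and lists were chosen with earlier results of these data known. Every member may be named; of each other list, at most 4 called genes with the largest change, and Cdkn1a always. Alternatives were the mean of all probe sets, only genes above the median probe set, quantile normalization again, median centring, no trend, a robust fit, array weights, a replicate block, fits of only the groups compared and leaving out each array. Leaving out wild-type saline arrays 1 and 4, or wild-type LPS array 4 with knockout LPS array 2, was chosen after seeing the data. Promoter windows come from RefSeq (GRCm38.p6), with 250 bases before and 50 after a start; motifs were matched letter by letter on both strands.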

Additional observations from a re-analysis of the deposited data

Results flagged for a closer look

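In 8 of the 140 combinations of 35 genes and 4 groups, 1 array stood apart from the other 3 by Dixon's gap test at 95%, which chance alone does in about 1 of 20 groups. In wild-type LPS hearts it was array 4 for Cdk4, at 7.89 against 7.74 to 7.76, for Mcm3, at 5.61 against 5.88 to 5.93, and for Aurka, at 4.30 against 4.12 to 4.14. In knockout LPS hearts it was array 2 for Pcna, at 8.73 against 9.91 to 10.11, and for Tyms, at 3.85 against 3.26 to 3.35. In wild-type saline hearts it was array 2 for Ccnb2, at 4.21 against 3.83 in each of the others, and array 4 for Top2a, at 4.06 against 3.50 to 3.59. In knockout saline hearts it was array 1 for Bub1b, at 3.88 against 4.10 to 4.13. Of the 8, 5 fell on the LPS arrays that also correlated least with their own group.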

How the results depend on the processing

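The calls of Ccnd2, Ccne2, Cenpa and Mcm7 in wild-type hearts and of Ccnd2, Ccne2, Cenpa and Ube2c in knockout hearts held in all 16 settings that left out 1 array. In those settings the number of the 35 genes called was 4 to 7 in wild-type, 4 to 5 in knockout and 8 to 10 in the mean response, and 0 between genotypes and in the interaction. Over all genes it was 3006 to 4902, 3871 to 5527 and 5854 to 7115, with 1 to 5 between genotypes after saline and 0 to 3 after LPS. Testing only genes above the median probe set gave 2 of the 35 in knockout hearts and 5 in the mean response, since dim genes were not tested, and 0 of all genes between genotypes after saline. Array weights gave 8 in wild-type hearts and 13 in the mean response, and 21 of all genes between genotypes after saline. Fitting only the groups compared gave 14 of all genes between genotypes after saline and 0 after LPS. Leaving out wild-type saline arrays 1 and 4 gave 3 in wild-type hearts, where Mcm6 and Mcm7 were lost, and 2061 of all genes. Leaving out wild-type LPS array 4 and knockout LPS array 2 gave 10 in wild-type hearts and 13 in the mean response, and 5723 of all genes in wild-type hearts. Apart from the arrays and genes left out, the cause of these shifts was not tested. The mean response of Cdk7, 0.26 in its brightest probe set, was -0.12 with the mean of all its probe sets.

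The replicate numbers did not pair the arrays: of 24 same-numbered pairs 3 had deviations correlated above 0.1, over a range of -0.27 to 0.33, and 4 of 16 arrays correlated best with their own number. With a replicate block 6 of the 35 genes were called in wild-type, 4 in knockout and 10 in the mean response. In wild-type hearts the block fit left out Mcm6 (adjusted p = 0.058) and added Mcm5 and Ccna2, and in the mean response it added Mcm5 and Cdk1. Dim probe sets, 4 arrays a group and whole-tissue RNA limit what these data can show for mitotic genes.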
